A study of Rattus norvegicus with 48 samples.

Results

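Liver RNA taken 24 h after 18 mg/kg of RDX, a nitramine explosive, was set directly against liver RNA taken 24 h after 3 mg/kg. Both groups were male Sprague-Dawley rats that had swallowed RDX once, in a gel capsule, at a dose chosen so as not to cause seizures, and each group had 3 arrays. The members are these 6 arrays of the 48 in the series, chosen by the tissue, dose and time in the sample labels, and the groups sampled at 0 h did not enter the comparison. The series also holds brain cortex and liver at 0, 4 and 48 h, again with 3 arrays for each dose. The animals' age and the clock time of tissue collection are not given in the sources used here, and no vehicle arm was used here, so both groups compared had received RDX. The labels do not say that the arrays of a group are from separate animals, so each p-value rests on the array-to-array spread only, which may be technical.

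RDX is a convulsant that blocks inhibitory GABA-A receptor channels in the brain, and the liver clears it by oxidation through cytochrome P450 enzymes. Most hepatocytes of an adult liver rest outside the cell cycle and re-enter it after tissue loss or on mitogenic signals. A dividing cell first expresses the genes of DNA replication, which E2F factors switch on, and later the genes of mitosis, which depend on CHR elements and CCAAT boxes in their promoters. The liver also turns between making fat after a meal, driven by the transcription factors SREBP-1c and ChREBP, and burning it during a fast, driven in part by the nuclear receptor PPAR alpha. Many of these genes follow the circadian clock as well.

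The values are the log2 expression levels of 31042 probe sets as deposited, and differences are given as the mean at 18 mg/kg minus the mean at 3 mg/kg with the standard error (SE) of the limma fit. The 6 arrays correlated with each other at 0.938 to 0.987 over all probe sets. Replicate 2 of both groups stood apart from the other arrays. The array weights that limma estimated were 0.323 for replicate 2 at 3 mg/kg and 0.397 for replicate 2 at 18 mg/kg, against 1.17 to 2.56 for the remaining 4 arrays. Replicate 2 at 3 mg/kg also had the narrowest spread of values, with an SD of 1.86 against 1.96 to 2.06 elsewhere. Among the liver arrays of other times, used here only for background, 2 had compressed values: replicate 2 at 3 mg/kg and 0 h, with an SD of 1.49, and replicate 1 at 18 mg/kg and 4 h, with 1.38, against 1.82 to 2.08 for the rest. The gap between the 3 prime and 5 prime actin control probe sets, in log2 units, is a sign of RNA integrity. It was 3.02 ± 0.30 at 3 mg/kg and 3.00 ± 0.17 at 18 mg/kg (SD, n = 3), and the groups overlapped. The same gap for GAPDH was 3.08 ± 0.63 and 3.24 ± 0.32. In both groups the 3 prime signal was thus far above the 5 prime signal, and likeness of the groups does not show that the RNA was intact. Albumin (Alb), the main plasma protein made by hepatocytes, lay between 14.26 and 14.39 on all 6 arrays. All 9 measured hepatocyte markers lay within 0.19 of 0 in difference.

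No probe set passed an adjusted p of 0.05 in the comparison of these 6 arrays (limma, Benjamini-Hochberg over 31042 probe sets, 0% called), and the smallest adjusted p was 0.067. At an unadjusted p under 0.05, 1116 probe sets (3.6%) stood out, 709 of them higher (2.28%) and 407 lower (1.31%) at 18 mg/kg. The 3 arrays of one dose lay wholly above or below those of the other for 2788 probe sets (8.98%), 1620 higher (5.22%) and 1168 lower (3.76%). The median difference over all probe sets was -0.0049, and 172 probe sets differed by more than 1 log2 unit. When all 24 liver arrays set the spread of each probe set, with the same 24 h means, 27 probe sets passed (0.087%), 5 higher (0.0161%) and 22 lower (0.0709%). Of these 27, 24 were named by a gene symbol and 14 belonged to the list of mitosis and cytokinesis genes. Without replicate 2 of both groups, 66 probe sets passed, 13 higher and 53 lower; this setting was chosen after seeing the data. Leaving out replicate 2 at 18 mg/kg alone gave 28, and leaving out replicate 2 at 3 mg/kg alone gave 1.

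Genes of mitosis and cell division were lower after the higher dose, and their list had the largest median difference of the 48 lists examined. Of the 40 measured members of the mitosis and cytokinesis list, 39 were below 0 in difference, where 47.3% of all genes and 50.8% of all probe sets were. Of the 40, 33 were lower at an unadjusted p under 0.05 (1.31% of all probe sets) and 32 had no overlap between the doses (3.76% of all probe sets). Their median difference was -1.39, against -0.0049 over all probe sets. The mean over the 40 genes was 7.63, 7.64 and 7.38 on the 3 arrays at 3 mg/kg, and 6.02, 6.66 and 6.10 at 18 mg/kg. The groups did not overlap, and replicate 2 was the highest of the arrays at 18 mg/kg. In the comparison of 6 arrays none of the 40 passed the adjusted threshold. With all 24 liver arrays setting the spread, 11 of the 40 passed in the gene's brightest probe set, all lower (0.0709% of all probe sets). Counting any probe set of a gene, 14 passed. Without replicate 2 of both groups 25 passed in the brightest probe set, all lower (0.171% of all probe sets), with a list median of -1.43.

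The promoters of the members that differed most are shown because the letters of mitotic promoter elements lie in them. The sequences are the 250 bases before the annotated start, from RefSeq (build GRCr8), 5′ to 3′ along the gene, for 3 mitosis genes and for Cdkn3, which is listed with the cell cycle inhibitors. Capitals mark the CHR core TTTGAA and the CCAAT box CCAAT, read on both strands, so that TTCAAA and ATTGG are the same letters on the other strand.
Cdc20 (chr5:137255800-137256049, minus strand): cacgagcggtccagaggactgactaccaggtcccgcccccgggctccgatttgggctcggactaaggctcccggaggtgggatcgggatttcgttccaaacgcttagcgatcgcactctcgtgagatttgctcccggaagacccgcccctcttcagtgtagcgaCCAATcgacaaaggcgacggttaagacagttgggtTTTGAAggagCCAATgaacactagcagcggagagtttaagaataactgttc
Ccnb2 (chr8:79981659-79981908, minus strand): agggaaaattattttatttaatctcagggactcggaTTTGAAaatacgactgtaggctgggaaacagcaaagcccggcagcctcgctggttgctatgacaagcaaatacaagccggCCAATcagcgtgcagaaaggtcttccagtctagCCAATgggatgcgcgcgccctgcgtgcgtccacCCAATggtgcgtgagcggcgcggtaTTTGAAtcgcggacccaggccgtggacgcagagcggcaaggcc
Ccnb1 (chr2:33655226-33655475, minus strand): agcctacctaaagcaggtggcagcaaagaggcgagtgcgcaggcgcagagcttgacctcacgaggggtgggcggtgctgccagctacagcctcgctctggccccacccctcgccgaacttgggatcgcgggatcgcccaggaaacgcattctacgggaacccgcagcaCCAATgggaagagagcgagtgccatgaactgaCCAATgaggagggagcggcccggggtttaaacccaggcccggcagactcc
Cdkn3 (chr15:22502136-22502385, plus strand): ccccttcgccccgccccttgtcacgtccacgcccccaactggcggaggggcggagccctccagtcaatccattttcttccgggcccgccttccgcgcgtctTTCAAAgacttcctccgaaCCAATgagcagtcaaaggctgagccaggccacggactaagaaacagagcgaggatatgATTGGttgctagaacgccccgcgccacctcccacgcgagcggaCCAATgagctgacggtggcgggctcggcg

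Of the 40 mitosis genes, 35 had a promoter in the RefSeq table. TTTGAA was present in 15 of the 35 (42.9%), against 10.9% of the promoters of all genes on the array and 16% of all 27457 promoters in the table. CCAAT was present in 27 of the 35 (77.1%), against 35.1% for the genes on the array and 34.3% for the whole table. Each of the 15 promoters with TTTGAA also held CCAAT, a pairing found in 4.03% of the promoters of genes on the array. The median difference was -1.41 for the 15 genes with TTTGAA and -1.33 for the 20 genes without it. Ccnb1, among the genes that differed most, held 2 CCAAT boxes and no TTTGAA in this window. A match describes letters in the window and says nothing of binding.

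Of the members that act at entry into mitosis and at anaphase, those with the largest differences are given first; Plk1, a kinase of mitotic entry, differed by less, at -0.97. Cdc20 activates the anaphase-promoting complex, which starts chromosome separation. Its values were 8.96, 9.41 and 8.73 at 3 mg/kg and 6.32, 7.04 and 6.48 at 18 mg/kg, a difference of -2.42 ± 0.26 (SE), 5.36-fold (adjusted p = 0.067). The doses did not overlap. Its 5 probe sets ranged from -2.42 to -0.12 in difference. Ccnb1, cyclin B1, the partner that activates Cdk1 at entry into mitosis, was at 8.40, 8.84 and 8.04 against 6.05, 6.72 and 6.10, a difference of -2.14 ± 0.27 (adjusted p = 0.073). Ccnb2, cyclin B2, was at 9.35, 9.48 and 9.34 against 7.07, 7.84 and 6.82, a difference of -2.15 ± 0.27 (adjusted p = 0.073; 0.034 with all 24 liver arrays). Cdk1 itself, the mitotic kinase, was at 8.81, 8.14 and 8.49 against 6.04, 7.33 and 6.56, a difference of -1.84 ± 0.33 (adjusted p = 0.22). In each of these genes every array at 18 mg/kg lay below every array at 3 mg/kg, and replicate 2 was the highest of the 18 mg/kg arrays. Ccna2, cyclin A2, which acts in replication and at entry into mitosis, differed by -1.77 ± 0.29 (adjusted p = 0.17; 0.034 with 24 arrays).

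**Figure D1:**
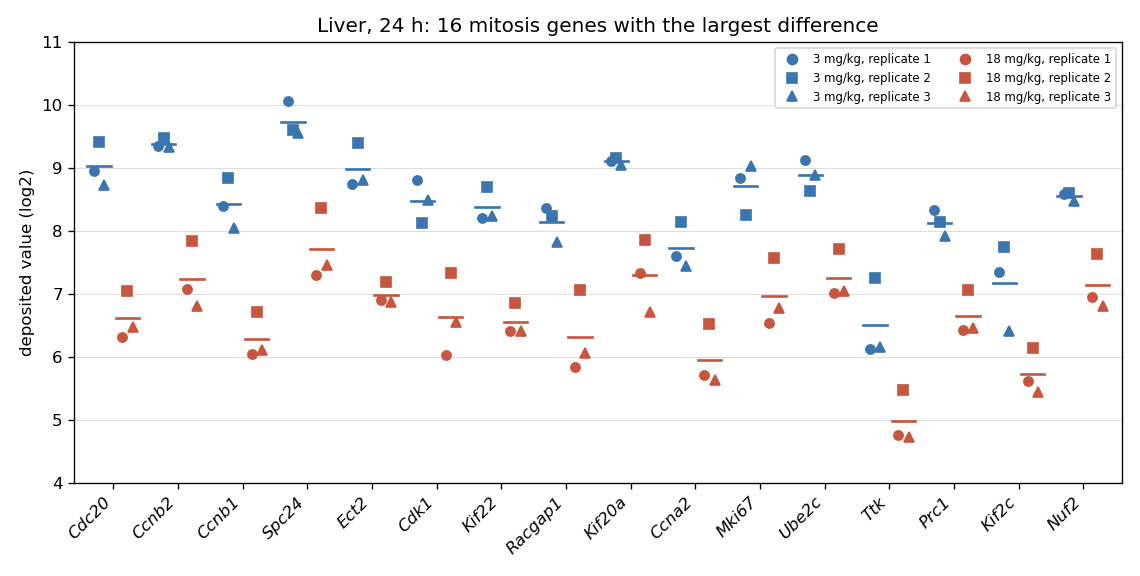
Deposited log2 values (y axis) of the 16 mitosis and cytokinesis genes with the largest difference (x axis) in liver at 24 h, with 1 point per array, shape for the replicate number and lines for the means of the 3 arrays. For each of these genes the 18 mg/kg arrays lie below the 3 mg/kg arrays, and for Cdc20 the difference of the means is -2.42.

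Other members act at the spindle, the centromere and the cleavage furrow. Their differences were not alike: Cenpa, the histone variant of centromeres, was at -0.15 with overlap, and those described next were picked for larger differences. Birc5, survivin, a part of the chromosomal passenger complex, had the narrowest spread: 7.57, 7.47 and 7.57 at 3 mg/kg and 6.07, 6.19 and 6.17 at 18 mg/kg, a difference of -1.39 ± 0.17 (adjusted p = 0.073; 0.011 with all 24 liver arrays). Spc24, a subunit of the NDC80 complex that holds microtubules at kinetochores, was at 10.06, 9.60 and 9.56 against 7.30, 8.36 and 7.46 (-2.03 ± 0.30, adjusted p = 0.12). Ect2 activates RhoA at the cleavage furrow, and stood at 8.75, 9.40 and 8.81 against 6.90, 7.20 and 6.87 (-2.00 ± 0.23, adjusted p = 0.067). Its partner Racgap1, part of the centralspindlin complex, differed by -1.82 ± 0.32 in its brighter probe set and by -0.43 in the other. Kif22, a motor that moves chromosome arms, differed by -1.82 ± 0.22 (adjusted p = 0.073). Mki67, the Ki-67 protein used as a marker of cycling cells, was at 8.85, 8.26 and 9.04 against 6.54, 7.57 and 6.79 (-1.75 ± 0.31, adjusted p = 0.21; 0.045 with 24 arrays). Top2a, which untangles sister DNA molecules, differed by -1.39 ± 0.22, Aurka, a kinase of the spindle poles, by -1.34 ± 0.19, and Ube2c, which hands ubiquitin to cyclin B, by -1.63 ± 0.24. In none of these genes but Cenpa did the doses overlap.

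The remaining members of the list were not uniform. Overlap between the doses was seen in 8 of the 40: Pbk, Aurkb, Mad2l1, Kif20b, Cenpe, Cks2, Cenpa and Cdc25b, with differences from -0.84 for Pbk to 0.025 for Cdc25b. Cdc25b, a phosphatase that activates Cdk1, was the only member above 0, and it was at 6.73, 5.90 and 6.41 against 5.88, 5.97 and 7.26. Under quantile normalization all 40 members were below 0. Kif2c and Kif23, which differed by -1.43 and -1.41 in the brighter probe set, were each at 0.049 and 0.068 in a second, dimmer one. Of the 40, 31 had a mean above 6, and 30 of those 31 were below 0.

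Further genes outside the list, which was written with earlier results of these data known, also work in cell division. The rule for named genes took Cdkn3, a phosphatase that acts on Cdk1 and peaks in mitosis, at 9.63, 9.65 and 9.70 at 3 mg/kg and 7.34, 7.72 and 6.86 at 18 mg/kg (-2.35 ± 0.24, adjusted p = 0.067; 0.034 with all 24 liver arrays). It also took Knstrn, a spindle protein, with a difference of -2.28 ± 0.25 (adjusted p = 0.067; 0.011 with 24 arrays), although a second Knstrn probe set was at -0.33. Pttg1, securin, which holds back separase until anaphase, was at 8.54, 9.17 and 8.75 against 6.91, 6.68 and 7.06 (-1.94 ± 0.22, adjusted p = 0.067; 0.011 with 24 arrays). Shcbp1, Cdca3, Cdca8 and Kifc1 were chosen after their values were seen, because they passed with 24 arrays, with differences of -1.65, -1.60, -1.26 and -1.39.

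Genes of DNA replication, the preceding step of the cycle, were centred at 0. Of 35 measured members of the S phase list, 18 were below 0, the median difference was -0.003, none lacked overlap in the lower direction (3.76% of all probe sets) and 3 did in the higher direction (5.22%). The mean over the 35 genes was 7.18, 6.96 and 6.99 at 3 mg/kg and 6.78, 7.27 and 7.10 at 18 mg/kg, and the groups overlapped. Mcm4, a subunit of the replicative helicase, was at 7.18, 6.92 and 7.43 against 7.59, 8.27 and 7.51 (0.62 ± 0.25). Pcna, the sliding clamp of DNA polymerase, was at 10.27, 9.45 and 9.90 against 9.77, 10.90 and 10.11 (0.38 ± 0.32). Tk1, thymidine kinase, was at 9.25, 8.54 and 8.99 against 7.99, 8.63 and 8.23 (-0.64 ± 0.25). Mcm6 ran from 5.28 to 7.10 within the 18 mg/kg group alone. Replicate 2 was the highest array at 18 mg/kg for Mcm4, Pcna, Tk1 and Mcm6. Without replicate 2 of both groups its median was -0.11, with 7 of the 35 members lower at an unadjusted p under 0.05 (3.31% of all probe sets in that setting) and none past the adjusted threshold.

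Promoters of replication genes are shown for contrast: the first 2 in the order of the list that hold the E2F letters TTTGGCGC, on either strand, in the same window. Capitals mark these letters, with GCGCCAAA for the opposite strand, and the CCAAT boxes.
Mcm5 (chr19:13488563-13488812, plus strand): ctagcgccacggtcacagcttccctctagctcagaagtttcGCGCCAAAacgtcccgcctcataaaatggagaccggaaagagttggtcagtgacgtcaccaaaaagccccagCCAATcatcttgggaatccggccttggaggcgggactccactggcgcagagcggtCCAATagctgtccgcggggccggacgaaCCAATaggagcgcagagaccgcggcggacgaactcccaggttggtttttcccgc
Mcm6 (chr13:42404353-42404602, minus strand): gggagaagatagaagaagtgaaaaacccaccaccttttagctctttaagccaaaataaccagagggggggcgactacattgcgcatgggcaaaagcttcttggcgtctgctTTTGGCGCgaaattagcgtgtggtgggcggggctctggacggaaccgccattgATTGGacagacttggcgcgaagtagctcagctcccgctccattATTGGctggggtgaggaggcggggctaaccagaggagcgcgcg

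Of the 35 replication genes, 32 had a promoter in the table. TTTGGCGC was present in 6 of the 32 (18.8%) and in none of the 35 mitosis promoters, against 0.639% for the genes on the array and 0.426% for the whole table. TTTGAA was present in 2 of the 32 (6.25%) and CCAAT in 18 (56.2%), and no promoter held both. These shares are descriptions, and no test of the difference between the lists was made.

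The plot of list members by difference sets these groups beside the others. Cell cycle genes of the G1 phase, CDK inhibitors and p53 targets had a median of 0.019 over 30 measured genes. Their lowest value was that of Cdkn3. Cdkn1a, the p21 inhibitor induced by p53, was at 10.05, 9.42 and 9.61 at 3 mg/kg and 8.98, 9.09 and 9.06 at 18 mg/kg (-0.65 ± 0.21, adjusted p = 0.98), without overlap. Ccnd1, cyclin D1, chosen after its values were seen, overlapped and was at 0.50 ± 0.28.

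**Figure D2:**
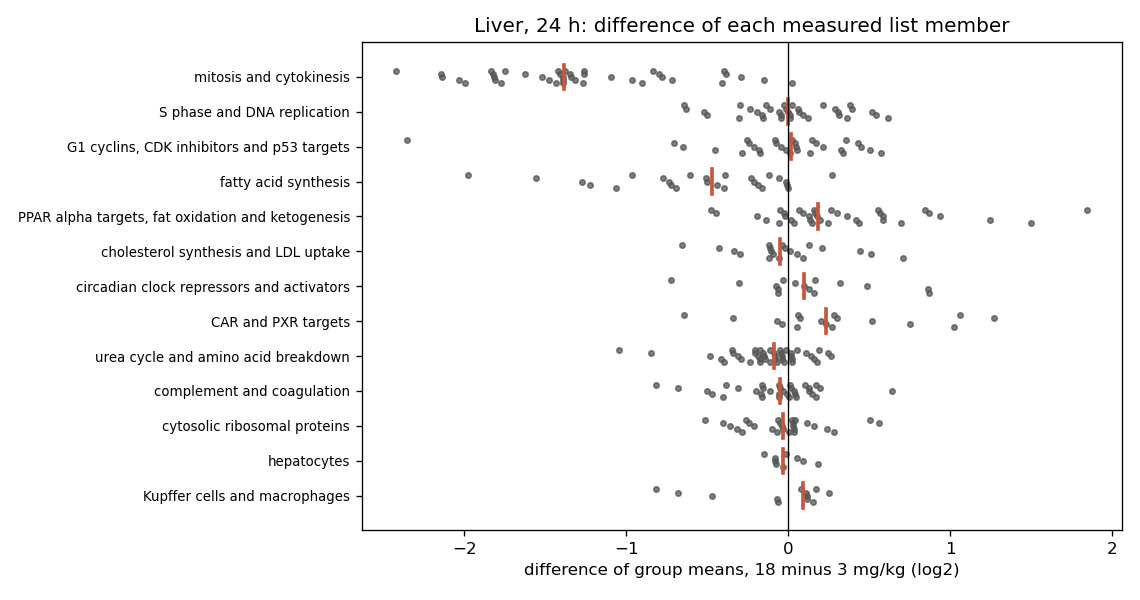
Difference of group means in liver at 24 h, 18 minus 3 mg/kg in log2 units (x axis), for every measured member (grey points) of 13 gene lists (y axis), with the list median as a red bar. The mitosis and cytokinesis list has a median of -1.39 and 39 of its 40 points below 0, while the S phase list is centred at -0.003.

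Genes of fat synthesis were lower at 18 mg/kg too, by a smaller amount. Of the 26 measured members, 25 were below 0, 9 were lower at an unadjusted p under 0.05 (1.31% of all probe sets) and 9 had no overlap (3.76%), with a median of -0.47. The mean over the 26 genes was 10.43, 10.05 and 10.35 at 3 mg/kg and 9.77, 9.57 and 9.81 at 18 mg/kg, and the groups did not overlap. None passed the adjusted threshold with the 6 arrays or with all 24 liver arrays, and 2, Scd and Pnpla3, passed without replicate 2 of both groups (0.171% of all probe sets lower). When 2 liver arrays with compressed values, at 0 and 4 h, were left out of the fit of 24, Scd, Thrsp and Fasn passed (0.139% of all probe sets lower).

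Scd, the desaturase that makes oleate and palmitoleate, was at 12.65, 12.40 and 12.80 at 3 mg/kg and 10.88, 10.03 and 10.99 at 18 mg/kg, a difference of -1.98 ± 0.27, 3.95-fold (adjusted p = 0.089). Every array at 18 mg/kg lay below every array at 3 mg/kg. Its adjusted p was 1.0 with all 24 liver arrays and 0.0046 without the 2 compressed arrays. Fasn, fatty acid synthase, was at 11.98, 12.04 and 11.82 against 10.91, 11.23 and 10.51 (-1.06 ± 0.22, adjusted p = 0.45; 0.039 without the 2 compressed arrays). Thrsp, a protein that promotes fat synthesis on feeding, was at 12.28, 12.04 and 12.40 against 11.11, 11.40 and 10.39 (-1.27 ± 0.27, adjusted p = 0.53; 0.011 without the 2 compressed arrays). Acaca, which makes malonyl-CoA, differed by -0.72 ± 0.17, and Acly, which supplies its acetyl-CoA, by -0.73 ± 0.24. A second Acaca probe set was at 0.31.

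Regulators and suppliers of the pathway were also below 0 in difference. Srebf1, the gene of SREBP-1c, was at 11.50, 10.55 and 11.22 against 10.27, 9.73 and 10.37 (-0.97 ± 0.28, adjusted p = 0.98), with no overlap. Mlxipl, the gene of ChREBP, overlapped at -0.51 ± 0.28. Pklr, liver pyruvate kinase, differed by -0.77 ± 0.25, Me1, malic enzyme, by -0.61 ± 0.22, and neither overlapped. Angptl8, a liver hormone of feeding that restrains lipoprotein lipase, was at 11.63, 10.78 and 11.13 against 9.44, 9.44 and 9.16 (-1.83 ± 0.24, adjusted p = 0.079; 0.54 with all 24 liver arrays). The pentose phosphate enzymes Pgd, Tkt and Taldo1, the first of which makes NADPH, differed by -0.80, -0.71 and -0.30 without overlap; Pgd and Taldo1 were chosen after their values were seen. Slc25a1, the citrate carrier, was at 10.50 and 10.57 in 18 mg/kg replicates 1 and 3 and at 6.86 in replicate 2, and its difference of -1.22 ± 0.85 was 0.00 ± 0.21 without that array. Dgat1, which completes triglyceride synthesis, was likewise 6.10 in that array and 8.32 to 9.08 in the other 5. Its difference of -0.50 was 0.44 ± 0.21 without that array. Slc25a1 and Dgat1 are both among the 25 list members counted as below 0.

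Genes of fat oxidation were on the other side of 0. Of the 36 measured members of the PPAR alpha and fat oxidation list, 28 were above 0, 9 were higher at an unadjusted p under 0.05 (2.28% of all probe sets) and 8 had no overlap (5.22%), with a median of 0.19. The mean over the 36 genes was 9.60, 9.52 and 9.56 at 3 mg/kg and 9.94, 9.69 and 10.06 at 18 mg/kg, and the groups did not overlap. None passed the adjusted threshold, and 1, Vnn1, passed without replicate 2 of both groups (0.0419% of all probe sets higher), where the list median was 0.388. The median was 0.337 without replicate 2 at 18 mg/kg alone. By its median the list did not stand out from others above 0. Medians were 0.231 for the CAR and PXR list, 0.185 for circadian output genes and 0.16 for bile acid genes.

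Vnn1, a pantetheinase and PPAR alpha target, was at 7.75, 8.78 and 7.50 at 3 mg/kg and 9.74, 9.42 and 10.41 at 18 mg/kg (1.85 ± 0.37, adjusted p = 0.40). Acot4, a peroxisomal thioesterase, was at 8.92, 7.47 and 8.59 against 9.55, 9.81 and 10.13 (1.50 ± 0.36, adjusted p = 0.73). Cpt1a, the enzyme that commits fatty acids to the mitochondrion, was at 11.40, 11.05 and 11.14 against 12.44, 11.63 and 12.06 (0.84 ± 0.24, adjusted p = 0.98). These genes did not overlap between the doses. Eci1, an isomerase of unsaturated fatty acid oxidation, differed by 1.25 ± 0.34, but its nearest arrays were 11.04 at 3 mg/kg and 11.06 at 18 mg/kg, and its second probe set was at 0.14. Decr1, a reductase of the same route, differed by 0.58 ± 0.20, Hadhb, the thiolase subunit of the trifunctional protein, by 0.44 ± 0.17, Pex11a, which divides peroxisomes, by 0.58 ± 0.20, and Cyp4a1, a PPAR alpha target that hydroxylates fatty acids, by 0.36 ± 0.19. Other core members were near 0: Acadm, the medium-chain dehydrogenase, at -0.02, Acsl1 at -0.025, Ehhadh at -0.058, Pdk4 at 0.13 and Fgf21 at 0.17 with overlap. Ppara itself, the receptor's gene, was dim, at 4.55 to 5.34, and overlapped at -0.14 ± 0.23. Acads and Acadvl, a pair of acyl-CoA dehydrogenases, had negative differences with 18 mg/kg replicate 2 at 8.22 and 8.08, against 10.00 to 10.95 and 9.94 to 10.45 in the other 5 arrays. Without that array their differences were 0.44 and 0.28.

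**Figure D3:**
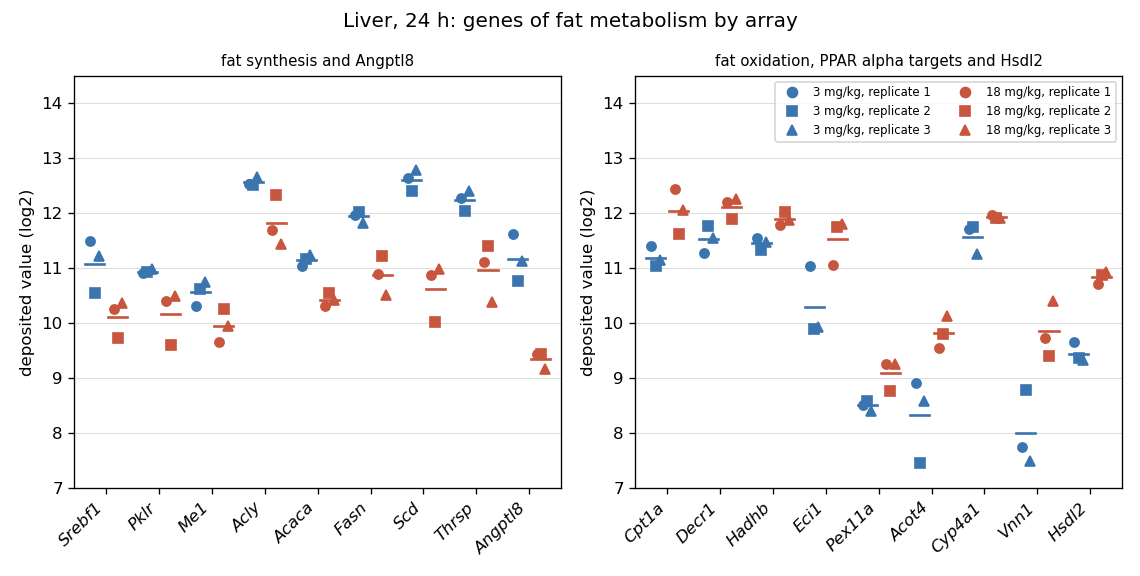
Deposited log2 values (y axis) of genes of fat synthesis with Angptl8 (left) and of fat oxidation with Hsdl2 (right) in liver at 24 h, with 1 point per array, shape for the replicate number and lines for the means of the 3 arrays. Scd and Angptl8 are lower on all 3 arrays at 18 mg/kg, with differences of -1.98 and -1.83, and Vnn1 and Hsdl2 are higher, with 1.85 and 1.40.

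Other genes that the rule named were higher at 18 mg/kg. Hsdl2, a peroxisomal dehydrogenase-like protein, was at 9.66, 9.37 and 9.33 against 10.71, 10.89 and 10.94 (1.40 ± 0.18, adjusted p = 0.079), and its 2 probe sets were at 1.38 and 1.40. Cyp17a1, the steroid 17-hydroxylase, was at 6.39, 5.85 and 6.15 against 8.16, 7.85 and 8.94 (2.19 ± 0.29, 4.56-fold, adjusted p = 0.084; 0.034 with all 24 liver arrays). Its arrays did not overlap, and the dose arms already differed at 0 h by 1.56 in the same direction. Rab30, a small GTPase of the Golgi, was at 7.40, 6.79 and 7.05 against 9.51, 8.28 and 9.89 (2.15 ± 0.39, adjusted p = 0.23), and its second probe set, at 1.80, passed with 24 arrays (adjusted p = 0.027). Nceh1, a cholesteryl ester hydrolase, differed by 1.54 ± 0.26, Trim36, a ubiquitin ligase, by 1.58 ± 0.23, Cemip2, a hyaluronidase, by 1.21 ± 0.21, Neu2, a sialidase, by 1.14 ± 0.22, and Slc22a5, the carnitine transporter, by 1.05 ± 0.19. None of these overlapped, and none passed with 24 arrays. Pgk1, a glycolytic enzyme, was at 1.17 ± 0.19 in its brightest probe set and as low as -0.68 in another. Pik3ca, chosen because it passed with 24 arrays, did so in 1 probe set at 1.01, while its brightest one was at 0.18 and overlapped.

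Genes that handle foreign compounds and steroids showed a few higher values at 18 mg/kg. The list of the receptors CAR and PXR and their targets had 17 measured genes, the 2 receptor genes among them. Of the 17, 13 were above 0 and 3 had no overlap in the higher direction (5.22% of all probe sets). The other 4 were below 0, down to -0.646, and the median was 0.23. Abcb1a, a P-glycoprotein efflux pump, was at 6.78, 6.78 and 6.69 against 7.77, 8.39 and 7.90 (1.27 ± 0.21, adjusted p = 0.17), without overlap. Ugt2b1, a glucuronosyltransferase, differed by 1.02 ± 0.26 and Sult2a6, a bile acid sulfotransferase, by 1.21 ± 0.25 (adjusted p = 0.40), also without overlap. Ephx2, soluble epoxide hydrolase and a PPAR alpha target, was at 6.80, 7.10 and 6.82 against 10.30, 7.33 and 10.63 (2.51 ± 0.73, adjusted p = 0.98). It was high in replicates 1 and 3 at 18 mg/kg and near the 3 mg/kg level in replicate 2, and without replicate 2 at 18 mg/kg it was at 3.56 (adjusted p = 0.0063). Ephx2 and Ugt2b1 were chosen after their values were seen. Sult2a6 and Ephx2 are outside the CAR and PXR list. With Ugt2b1 they have the largest differences of 32 measured conjugation enzymes. That list had a median of 0.057, with 21 members above 0 and 11 below. Of the 32, 3 had no overlap in the higher direction (5.22% of all probe sets). Cyp1a1, Cyp1a2, Cyp3a2 and Cyp2c11, cytochrome P450 enzymes of drug and steroid oxidation, differed by 0.18, 0.047, 0.055 and -0.11, with overlap. Cyp7a1, the rate-limiting enzyme of bile acid synthesis, was at 11.06, 11.03 and 10.72 against 9.48, 10.51 and 10.27 (-0.85 ± 0.28, adjusted p = 0.98), without overlap.

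The clock genes differed between arrays of the same dose. Per2, a clock repressor, was at 8.85, 6.83 and 7.82 at 3 mg/kg and 7.80, 10.29 and 8.02 at 18 mg/kg. Bmal1, a clock activator, was at 7.94, 6.40 and 7.78 against 6.84, 8.27 and 7.30, and Nr1d1, its repressor REV-ERB alpha, at 6.91, 7.45 and 6.98 against 8.07, 5.88 and 7.88. Replicate 2 held the lowest Per2 and Bmal1 at 3 mg/kg and the highest at 18 mg/kg, so within each dose these arrays lay on opposite sides of their group. Over 15 measured clock genes the median difference was 0.099, and the members ran from -0.727 to 0.87. Of the 15, 1 had no overlap in the higher direction (5.22% of all probe sets) and 1 in the lower (3.76%). Per3, another clock repressor, had no overlap, at 5.78, 5.77 and 6.11 against 6.95, 6.43 and 6.87 (0.86 ± 0.21, adjusted p = 0.76). Nampt, the clock-driven enzyme of NAD synthesis, was at 8.06, 7.70 and 7.93 against 8.69, 9.23 and 8.86 (1.03 ± 0.21, adjusted p = 0.40), without overlap. Whether the state of the clock had a part in the dose difference was not tested.

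**Figure D4:**
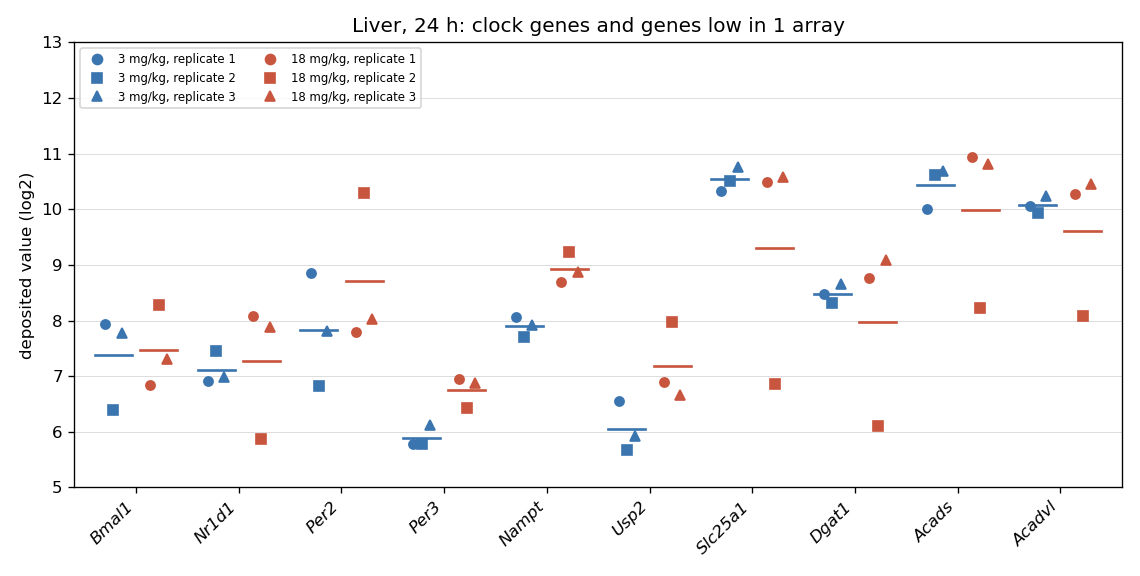
Deposited log2 values (y axis) of 6 genes of the circadian clock and its output and of 4 genes of fat metabolism (x axis) in liver at 24 h, with 1 point per array, shape for the replicate number and lines for the means of the 3 arrays. Replicate 2 (squares) at 18 mg/kg stands apart from its group, for example at 10.29 for Per2 and 6.86 for Slc25a1. Usp2, the highest of 13 measured circadian output genes with a difference of 1.12, was chosen after its values were seen.

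Insulin and stress genes gave values on both sides. Irs2, an insulin receptor substrate that is high in fasting, was at 6.17, 6.25 and 6.60 against 7.51, 6.88 and 7.68 (1.01 ± 0.25, adjusted p = 0.78), without overlap. Igfbp1, which binds IGF1 and is held down by insulin, was at 8.28, 10.45 and 10.09 against 11.72, 10.19 and 11.76 (1.62 ± 0.60, adjusted p = 0.98) and overlapped. Pck1, the gluconeogenic enzyme PEPCK, was at 0.34 ± 0.20. Hmox1, heme oxygenase, was at -0.47 ± 0.22 and Gadd45b, a stress-induced gene, at -0.04 ± 0.18. Over 24 genes of gluconeogenesis and fasting the median was -0.016, and over 21 glucocorticoid-induced genes it was 0.049.

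Most of the other lists had medians near 0. The medians were -0.032 for 27 cytosolic ribosomal proteins, -0.03 for 40 subunits of oxidative phosphorylation and 0.006 for 33 proteasome subunits. They were -0.049 for 33 genes of complement and coagulation and -0.091 for 43 genes of the urea cycle and amino acid breakdown. None of the ribosomal, oxidative phosphorylation, complement or urea cycle genes reached an unadjusted p under 0.05 in limma, and none passed with all 24 liver arrays. Marker lists of other cells of the liver had small medians too, though 12 of the 15 T and NK cell genes were above 0. The median was 0.094 for 12 Kupffer cell and macrophage genes, 0.17 for 15 T and NK cell genes, 0.06 for 12 endothelial genes and 0.041 for 17 stellate cell and matrix genes, with no member of these lists at an unadjusted p under 0.05. In bulk liver, fewer dividing cells and less mitotic RNA per cell cannot be told apart.

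The same comparison at the other times places the 24 h values. The list mean of the mitosis genes was 6.73, 6.89 and 7.60 at 3 mg/kg and 7.07, 7.42 and 6.96 at 18 mg/kg at 0 h, and the doses overlapped. At 4 h it was 6.50, 6.52 and 6.40 against 6.94, 6.45 and 6.83, again with overlap. At 48 h it was 7.08, 7.08 and 6.67 against 5.85, 5.40 and 5.67, without overlap. The median difference was 0.037 at 0 h, 0.25 at 4 h, -1.39 at 24 h and -1.34 at 48 h. The 24 h and 48 h comparisons share no arrays. At 48 h the exocrine pancreas marker list had all 14 members below 0 (48.1% of all probe sets) and a median of -1.316. Only 1 of the 14 had no overlap in the lower direction (6.79% of all probe sets), and none passed the adjusted threshold. The mean of this list was 6.79 (SD 2.03) at 3 mg/kg and 5.55 (SD 0.07) at 18 mg/kg. The source of these pancreas values was not tested. At 48 h, 39 of the 40 mitosis genes were below 0 (48.1% of all probe sets), 36 had no overlap in the lower direction (6.79% of all probe sets), and 4 probe sets passed in all (0.0129%), 2 of them the mitosis genes Racgap1 (-2.00 ± 0.16, adjusted p = 0.018) and Ect2 (-2.51 ± 0.26, adjusted p = 0.035). None passed at 48 h with the replicate block, with the actin gap as a covariate, or on leaving out replicate 1 or 2 at 3 mg/kg or replicate 2 at 18 mg/kg, where 1397 to 3197 probe sets had an unadjusted p under 0.05 (limma). Of the 35 S phase genes, 29 were below 0 at 48 h, with a median of -0.26.

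**Figure D5:**
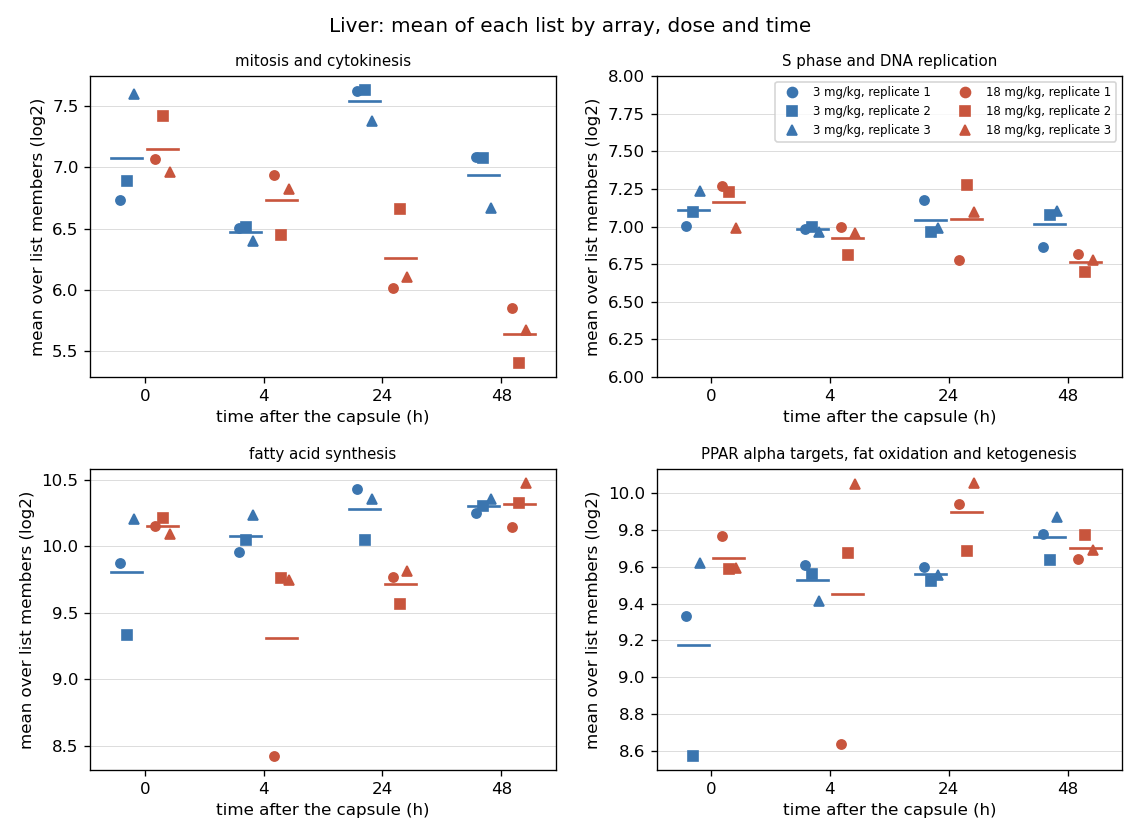
Mean log2 value over the members of 4 gene lists (y axis) on each liver array by time after the capsule in hours (x axis, evenly spaced groups) and dose, with shape for the replicate number and lines for the means of the 3 arrays. The mitosis list separates the doses at 24 h (7.38 to 7.64 against 6.02 to 6.66) and at 48 h. In both fat lists the lowest point at 0 h (3 mg/kg, square) and at 4 h (18 mg/kg, circle) is an array with compressed values.

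The difference at 24 h was also tested against the difference at each other time in the fit of all 24 liver arrays. Against 0 h no probe set passed (0% called, limma), with 2527 at an unadjusted p under 0.05 (8.14%). Against 48 h none passed (limma), with 747 at an unadjusted p under 0.05 (2.41%), and against 4 h 1 probe set passed (0.00322%), which belonged to Ccnb1; leaving out single arrays of these times gave 0 to 3. For the mitosis list the median of the 24 h difference minus the other was -1.27 against 0 h, -1.67 against 4 h and -0.046 against 48 h, with no representative probe set of the list past the threshold. Fat synthesis genes had a median difference of 0.44 at 0 h, -0.90 at 4 h, -0.47 at 24 h and 0.036 at 48 h. The 4 h value includes replicate 1 at 18 mg/kg, an array with compressed values whose list mean was 8.42 where the other 2 arrays were at 9.77 and 9.74. The fat oxidation list stood at 0.47 at 0 h, -0.071 at 4 h, 0.19 at 24 h and -0.097 at 48 h. The 0 h value includes replicate 2 at 3 mg/kg, the other array with compressed values, whose list mean was 8.57. Eci1 and Acot4 differed by 1.87 and 1.08 at 0 h.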

How the data were processed

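RNA of 24 liver samples, 6 of them in this comparison, was hybridised to Affymetrix whole-genome rat arrays, per the labels' protocols. The authors deposited log2 values; RMA and Partek are named, without version, in the submitters' processing notes. The 6 arrays had means of 6.738 to 6.739 but SDs of 1.86 to 2.06, so the deposited values do not share 1 distribution. With means so alike, a difference shared by most transcripts would be reduced. The deposited log2 values were used without further scaling or filtering, and 57 control probe sets were left out. Of 31042 probe sets, 20826 carried 1 gene symbol (14217 genes), 436 several and 9780 none. Where a gene had several probe sets, the single-symbol one that was brightest over the liver arrays stood for it.

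The 6 arrays were fitted in limma 3.58.1 (R 4.3.3), 1 mean per dose, with a two-sided moderated test, adjusted by Benjamini-Hochberg over all probe sets at a threshold of 0.05. The script was tested on simulated data. The differences from other times were tested in a fit of all 24 liver arrays. Named genes were those past the threshold or, as none passed, the 10 with the smallest p without overlap in each direction, the member of each of 48 lists (33 pathways, 15 cell types) with the smallest p, and a fixed set; genes outside this rule were picked with their values in view, as the text says of each, except members of the mitosis, S phase and fat lists, which were described as whole lists. The comparison, the lists and the motifs were chosen with earlier results of these data known. Precision is limited by the number of arrays. Alternatives were other normalizations, a filter at a mean of 6, 1 probe set per gene, array weights, a trended robust variance, the actin gap as a covariate, a replicate block, other sets of arrays and each array left out.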

Additional observations from a re-analysis of the deposited data

Results flagged for a closer look

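The dose difference of 1 probe set differed between times by a test of the difference itself. For Ccnb1, cyclin B1, the difference at 24 h (18 minus 3 mg/kg) minus that at 4 h was -2.98 ± 0.43 (SE, limma with all 24 liver arrays, adjusted p = 0.019) in a probe set other than the one used above. Its values at 24 h were 8.23, 8.44 and 7.65 at 3 mg/kg and 5.49, 6.26 and 5.51 at 18 mg/kg, and the doses did not overlap. At 4 h they were 6.16, 5.99 and 6.14 at 3 mg/kg and 6.37, 6.58 and 7.23 at 18 mg/kg, again without overlap and in the other direction. Replicate 1 at 18 mg/kg and 4 h had compressed values. No probe set passed with a replicate block, quantile normalization or centring on the median, or on leaving out any 1 of the 3 arrays at 3 mg/kg and 4 h, replicate 1 or 2 at 3 mg/kg and 24 h, or replicate 1 or 3 at 18 mg/kg and 24 h, where 987 to 1656 had an unadjusted p under 0.05 (limma). With 1 probe set per gene this probe set was not among those tested, and none passed (669 at an unadjusted p under 0.05).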

How the results depend on the processing

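Precision is limited by 3 arrays for each dose. At 24 h, 0 probe sets passed in the 6-array comparison. The number was 6 with 1 probe set per gene, 67 with array weights, 3 with the actin gap as a covariate, 27 with all 24 liver arrays, 55 without the 2 compressed arrays of that fit and 66 without replicate 2 of both groups (chosen after seeing the data). Leaving out each array gave 0 to 28, with 28 without replicate 2 at 18 mg/kg. Quantile normalization, median centring, the filter at a mean of 6 and the trended robust variance gave 0. The labels do not say whether the replicate numbers pair the arrays. Correlations of deviations at 24 h were -0.36, -0.07 and 0.12, too few to settle it. The replicate block gave 0 at 24 h, 375 at 0 h, 0 for 24 h against 4 h and 0 at 48 h.

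For 24 h against 0 h (0 probe sets), array weights gave 3856, the actin gap 5 and leaving out arrays 0 to 79, with 79 without replicate 3 at 3 mg/kg and 0 h. For 24 h against 4 h (1), quantile normalization, median centring and 1 probe set per gene gave 0, array weights 317 and leaving out arrays 0 to 3. For 24 h against 48 h (0), array weights gave 23 and leaving out arrays 0 to 1. At 0 h (0), array weights gave 5789 and leaving out arrays 0 to 0. At 4 h (0), array weights gave 1483, the actin gap 561 and leaving out arrays 0 to 802, with 802 without the compressed replicate 1 at 18 mg/kg. At 48 h (4), the filter gave 1, array weights 30, the trended robust variance 27, the actin gap 0 and leaving out arrays 0 to 14, with 14 without replicate 3 at 3 mg/kg.

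The median of the fat oxidation list was 0.388 without replicate 2 of both groups and 0.156 to 0.337 on leaving out arrays. That of the mitosis list stayed between -1.555 and -1.275, that of fat synthesis between -0.58 and -0.356 and that of S phase between -0.079 and 0.093. Of 223 genes followed, 53 passed under some alternative, and 55 had the opposite sign under at least 1 alternative. The cause of these shifts was not tested.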

Other observations

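Single genes of other lists, and some of none, also separated the doses at 24 h. All those in this section except Hsph1, Cux2 and Cyp2c11 were chosen after their values were seen, and no probe set passed the adjusted threshold. Hacl1, which shortens branched and hydroxy fatty acids in peroxisomes, was at 9.79, 8.76 and 9.31 at 3 mg/kg and 10.29, 10.64 and 10.92 at 18 mg/kg (1.33 ± 0.29). Plin5, a lipid droplet coat protein and PPAR alpha target, was at 1.06 ± 0.38. Both lie outside the fat oxidation list and had no overlap. Spink1, a secreted trypsin inhibitor, was at 9.85, 9.10 and 8.71 against 7.64, 7.95 and 7.54 (-1.51 ± 0.29), with another probe set at 0.094. Rcan1, a calcineurin inhibitor, was at 10.70, 10.54 and 10.73 against 9.65, 8.77 and 9.79 (-1.25 ± 0.27).

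Hsph1, a heat shock protein, was at 9.53, 8.45 and 9.56 against 9.73, 10.57 and 10.02 (0.93 ± 0.34), and the median of 24 heat shock genes was 0.058. Tsc22d3 (GILZ), which glucocorticoids induce, was at 9.27, 8.90 and 8.99 against 9.72, 10.06 and 9.42 (0.68 ± 0.22). Cux2, a transcription factor that is higher in female than in male rodent liver, was at 6.02, 5.52 and 6.09 against 6.41, 7.34 and 6.53 (0.89 ± 0.28). The male-specific Cyp2c11 did not separate the doses, at -0.11 ± 0.17 with overlap.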
